A study of Mus musculus with 6 samples.

Results

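Genes of the early neutrophil precursor were examined in RNA-seq of splenic CD8+ T cells: Mpo, Elane, Prtn3, Ctsg, Ms4a3 and Cebpa. These 6 genes were chosen from 28773 genes, with their lower levels after 2DG already known, so their fold changes describe the choice and carry no p-value. The study compared 2 groups of 3 mouse spleen isolates, all collected on day 35. Both groups had their tumor treated by microwave ablation (MWA), which kills tissue by heating it. The MWA+PBS group (samples 1 to 3) then received phosphate-buffered saline, and the MWA+2DG group (samples 4 to 6) received 2-deoxy-D-glucose (2DG), a glucose analogue that interferes with glycolysis. No sample without ablation and no sample without tumor was among the 6, so all values are relative to ablated mice. CD8+ T cells were isolated from the spleen with a magnetic kit after red cells had been lysed, and the labels give neither the mouse strain nor whether each sample was 1 animal or a pool.

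Neutrophils carry their proteins in granules that are filled in sequence as the cell matures in the marrow or, in mice, in the spleen. Primary (azurophil) granules are filled at the promyelocyte stage, and secondary and tertiary granules are filled later, when the primary granule genes have been switched off. Mpo encodes myeloperoxidase, the enzyme that makes hypochlorous acid from hydrogen peroxide. Elane (neutrophil elastase), Prtn3 (proteinase 3) and Ctsg (cathepsin G) encode the serine proteases stored beside it. Ms4a3 encodes a membrane protein that marks granulocyte-monocyte progenitors, and Cebpa encodes C/EBPα, the transcription factor needed to form those progenitors. None of these genes is a marker of CD8+ T cells.

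The 250 bases before the RefSeq start of the genes are shown for the 5 members whose window held GGAAGT, a hexamer of the kind bound by ETS factors such as PU.1. They are given 5′ to 3′ on the strand of the gene (RefSeq, GRCm38.p6), with GGAAGT in capitals. The submitters' processing notes name mm9 for the files, and no expression value depends on these coordinates.
Mpo (chr11:87793534-87793783, plus strand): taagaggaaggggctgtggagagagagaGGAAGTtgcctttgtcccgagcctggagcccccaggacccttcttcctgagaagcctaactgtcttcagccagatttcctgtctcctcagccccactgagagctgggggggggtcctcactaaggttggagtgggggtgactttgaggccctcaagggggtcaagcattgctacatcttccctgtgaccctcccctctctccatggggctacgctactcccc
Elane (chr10:79886062-79886311, plus strand): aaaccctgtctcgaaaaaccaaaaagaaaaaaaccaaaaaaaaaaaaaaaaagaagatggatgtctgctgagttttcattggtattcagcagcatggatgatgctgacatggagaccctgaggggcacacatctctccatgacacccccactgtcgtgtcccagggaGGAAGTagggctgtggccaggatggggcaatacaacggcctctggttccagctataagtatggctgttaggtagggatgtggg
Prtn3 (chr10:79879417-79879666, plus strand): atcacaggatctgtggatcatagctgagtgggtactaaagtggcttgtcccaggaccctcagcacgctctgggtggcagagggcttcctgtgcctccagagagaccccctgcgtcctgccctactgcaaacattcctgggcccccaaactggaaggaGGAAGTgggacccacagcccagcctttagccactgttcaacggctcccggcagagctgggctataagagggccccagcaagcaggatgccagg
Ctsg (chr14:56102575-56102824, minus strand): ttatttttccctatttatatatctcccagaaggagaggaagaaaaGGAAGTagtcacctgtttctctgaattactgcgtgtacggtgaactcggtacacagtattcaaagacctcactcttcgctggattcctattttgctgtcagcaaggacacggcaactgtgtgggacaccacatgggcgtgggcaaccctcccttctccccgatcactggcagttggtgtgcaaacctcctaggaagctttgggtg
Ms4a3 (chr19:11640852-11641101, minus strand): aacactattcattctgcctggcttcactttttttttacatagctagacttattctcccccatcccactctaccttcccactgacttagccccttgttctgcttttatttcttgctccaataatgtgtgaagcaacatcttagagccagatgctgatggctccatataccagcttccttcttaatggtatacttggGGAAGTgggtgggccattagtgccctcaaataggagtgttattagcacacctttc

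The hexamer began 222 bases before the start in Mpo, 205 in Ctsg, 93 in Prtn3, 83 in Elane and 55 in Ms4a3. Each match was on the strand of the gene, although both strands were searched. GGAAGT was present in 19.7% of all 32851 windows of this length. The MYB motif AACNGT was in the windows of Mpo, Prtn3 and Ctsg and in 22.3% of all windows. The RUNX motif TGTGGT was in the Ctsg window and in 14.05% of all windows. The C/EBP motif TTGCNNAA was in none of the 6 members' windows and in 9.56% of all windows. For Cebpa, none of the 4 motifs was present. These matches are descriptions of letters, and binding was not measured.

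Values are FPKM, fragment counts divided by transcript length and library size, which allows levels of different genes to be compared. In MWA+PBS, Mpo (ENSMUSG00000009350) was 241.2, 200.5 and 236.5 FPKM in samples 1, 2 and 3. In MWA+2DG it was 32.7, 33.1 and 34.3 FPKM in samples 4, 5 and 6. The groups were far apart, and the MWA+2DG samples were nearly equal. The means were 226.1 ± 22.2 and 33.4 ± 0.847 FPKM (SD, n = 3), a 6.77-fold lower level. On the scale used for all genes, log2(FPKM + 1), the change was -2.72 ± 0.08 (SE). Mpo was the 109th highest of the 12444 genes tested in MWA+PBS and the 1198th in MWA+2DG.

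Mpo in MWA+PBS stood at about the level of Cd8a, which encodes a chain of the CD8 co-receptor and was 231.5 ± 6.96 FPKM. With 2DG, Cd8a was 366.4 ± 9.47 FPKM, and Mpo was far below it. The marker of the labelled cell type was therefore present in both groups, together with Mpo. Which cells carried Mpo was not measured. In bulk RNA, fewer cells of a type and less RNA per cell cannot be told apart.

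The 3 serine protease genes had similar levels. Elane (ENSMUSG00000020125) was 50.7, 45.3 and 45.7 FPKM in MWA+PBS and 12.2, 10.5 and 9.36 FPKM in MWA+2DG. Ctsg (ENSMUSG00000040314) was 44.7, 44.3 and 40.03 FPKM in MWA+PBS and 10.1, 7.39 and 9.89 FPKM in MWA+2DG. Prtn3 (ENSMUSG00000057729) was 42.7, 32.3 and 33.7 FPKM in MWA+PBS and 7.09, 7.10 and 6.50 FPKM in MWA+2DG. In each gene the lowest MWA+PBS sample was well above the highest MWA+2DG sample. The mean of Elane went from 47.2 ± 3.05 to 10.7 ± 1.42 FPKM, 4.43-fold lower (log2 change -2.05 ± 0.09). Ctsg went from 43.0 ± 2.59 to 9.13 ± 1.51 FPKM, 4.71-fold lower (-2.13 ± 0.11). Prtn3 went from 36.2 ± 5.61 to 6.90 ± 0.344 FPKM, 5.25-fold lower (-2.23 ± 0.10).

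The progenitor membrane gene and the transcription factor were the lowest members. Ms4a3 (ENSMUSG00000024681) was 8.74, 8.78 and 8.63 FPKM in MWA+PBS and 2.29, 2.12 and 2.22 FPKM in MWA+2DG. It varied least of the members among the MWA+PBS samples and had the smallest change, 3.94-fold lower (8.72 ± 0.0777 against 2.21 ± 0.0854 FPKM, log2 change -1.60 ± 0.06). Cebpa (ENSMUSG00000034957) was 5.96, 4.19 and 5.09 FPKM in MWA+PBS and 0.80, 0.67 and 0.63 FPKM in MWA+2DG. Its groups were also apart, and the ratio of its means, 7.26-fold, was the largest of the 6 members (5.08 ± 0.885 against 0.70 ± 0.0889 FPKM). The pseudocount of 1 shrinks the change of so low a gene, and on the log2(FPKM + 1) scale it was -1.83 ± 0.12.

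**Figure D1:**
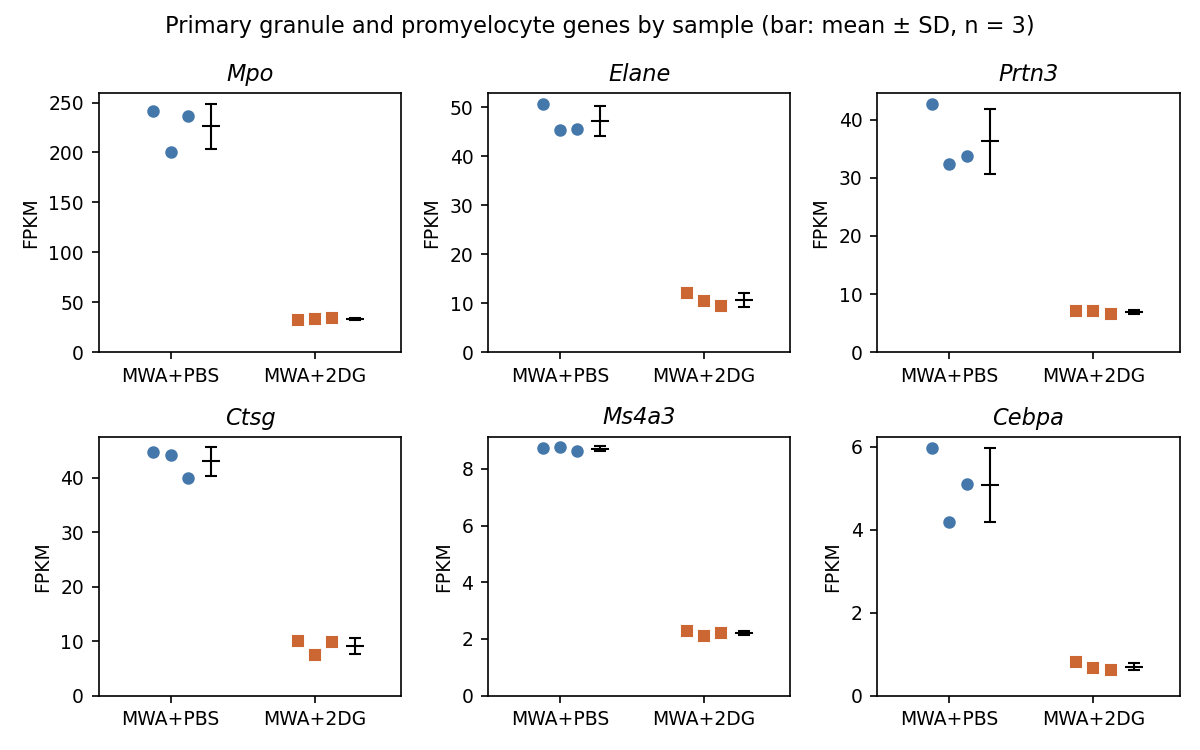
FPKM of each member by sample, with MWA+PBS as circles and MWA+2DG as squares; the bar beside each group is the mean ± SD (n = 3), and each vertical axis starts at 0. No member has overlapping groups: Mpo lies between 200.5 and 241.2 FPKM in MWA+PBS and between 32.7 and 34.3 FPKM in MWA+2DG.

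All 6 members passed the filter of a mean of at least 1 FPKM over the 6 samples, Cebpa only through its MWA+PBS values. They were selected on this comparison, so that 6 of 6 were lower without overlap restates the choice, and nothing is read from it. By limma with Benjamini-Hochberg adjustment, 39.4% of all 12444 genes tested were called, 17.1% as lower and 22.3% as higher, and the groups did not overlap in 21.9% with lower and 30.2% with higher values. Their median log2 change was -2.09, with a range of -2.72 to -1.60, and the median of all tested genes was 0.05. A log2 change below -1.5 was found for 204 of the 12444 genes (1.64%). That cut lies just above the members' highest change, so that each member passes it restates the choice. The members' MWA+2DG level was 13.8% to 25.4% of the MWA+PBS level, with a median of 20.1%, against a median of 103.9% for all tested genes.

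The order of levels in MWA+PBS was Mpo, Elane, Ctsg, Prtn3, Ms4a3 and Cebpa, and it was the same in MWA+2DG. Some neighbors in this order were not separated. Elane and Ctsg were apart only by 45.3 against 44.7 FPKM in MWA+PBS and overlapped in MWA+2DG. Ctsg and Prtn3 overlapped in MWA+PBS, while with 2DG the lowest Ctsg value (7.39 FPKM) was just above the highest of Prtn3 (7.10 FPKM). The steps from Mpo to Elane, from Prtn3 to Ms4a3 and from Ms4a3 to Cebpa were apart in both groups. Within MWA+PBS, sample 2 was the lowest for Mpo, Elane, Prtn3 and Cebpa, but the highest for Ms4a3.

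Summed over the 6 members, the level was 335.4 to 394.0 FPKM in MWA+PBS and 60.9 to 65.1 FPKM in MWA+2DG, a 5.82-fold lower mean. The mixture within the sum also differed. Mpo made up 61.7% ± 2.14 of the summed FPKM in MWA+PBS, compared with 53.0% ± 2.49 in MWA+2DG. Relative to Mpo in the same sample, Ms4a3 was higher in MWA+2DG by 0.77 ± 0.10 on the log2 scale (SE), and the groups did not overlap. For Elane the difference was 0.60 ± 0.15, for Ctsg 0.51 ± 0.18 and for Prtn3 0.37 ± 0.11, again without overlap, although Ctsg in samples 2 and 5 was nearly equal (-2.18 and -2.16). These 4 genes thus kept more of their level than Mpo did. Cebpa moved with Mpo, with a difference of -0.10 ± 0.14 and overlapping groups. No test was made on these ratios, since they are built from the values that chose the genes.

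**Figure D2:**
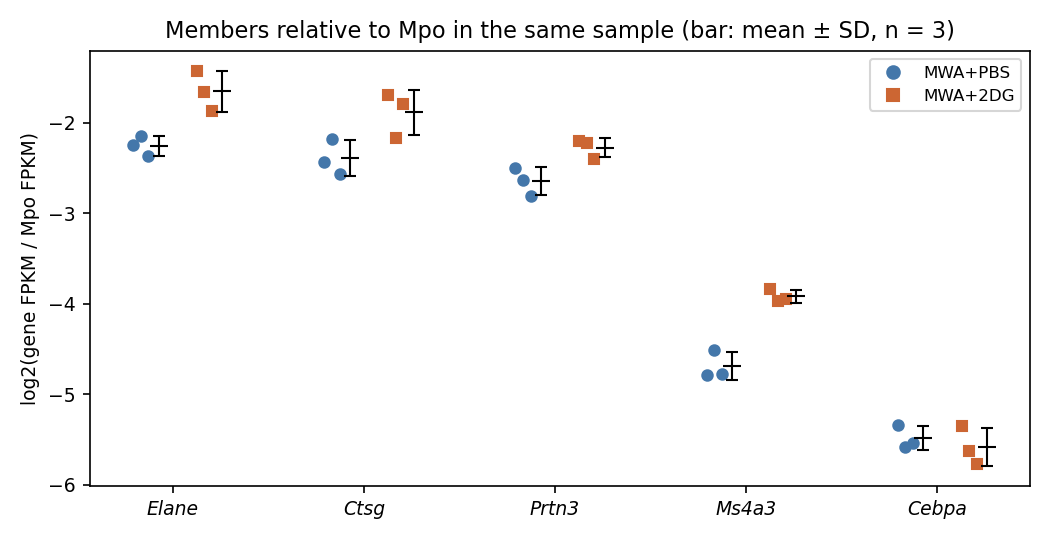
Log2 ratio of each member to Mpo in the same sample, for MWA+PBS (circles) and MWA+2DG (squares), with the bar giving the mean ± SD (n = 3). Ms4a3 shifts from a mean of -4.69 to -3.92, whereas Cebpa has overlapping groups at -5.49 and -5.58.

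The granule genes of later stages went the other way. The secondary and tertiary granule list held 14 genes, summed to 64.8 to 81.3 FPKM in MWA+PBS and 931.4 to 1022 FPKM in MWA+2DG, and 13 of its 13 tested genes rose by limma's adjusted p (median 2.65), 10 of them also when samples were scaled to T lineage genes. That scaling shifts all genes, so that 414 of the 12444 were called higher and 9045 lower. List counts under it are to be read against these. Without it, 22.3% of all tested genes were called higher and 17.1% lower. Ltf (lactoferrin, which binds iron) went from 5.24 ± 0.476 to 127.1 ± 2.55 FPKM, a log2 change of 4.36 ± 0.07. Camp, the cathelicidin antimicrobial peptide, rose by 4.36 ± 0.19, and Ngp, neutrophilic granule protein, by 4.48 ± 0.11. In MWA+PBS the 6 primary granule and promyelocyte genes summed to 5.14 ± 0.881 times the secondary and tertiary granule genes. In MWA+2DG they summed to 0.0642 ± 0.000971 times. The log2 ratio went from 2.35 ± 0.26 to -3.96 ± 0.02, a difference of -6.31 ± 0.15 (SE). The ratio is built on the values that chose the members, so its difference restates that choice and is given as a description, with no test.

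**Figure D3:**
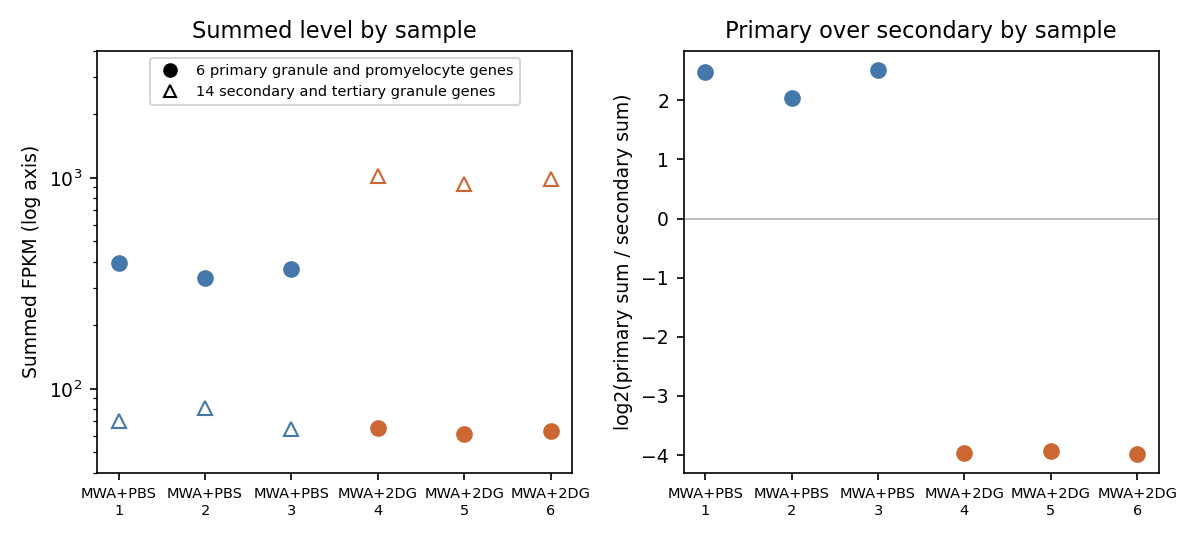
Left, summed FPKM by sample on a log axis for the 6 primary granule and promyelocyte genes (filled circles) and the 14 secondary and tertiary granule genes (open triangles); right, the log2 ratio of the sums; blue is MWA+PBS and orange MWA+2DG. The primary sum is the higher one in samples 1 to 3, and the secondary sum is the higher one in samples 4 to 6, with ratios near 2.35 and -3.96.

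The mature neutrophil list, which holds calprotectin subunits and receptors of circulating neutrophils, had 9 of 13 tested genes higher and 1 lower, the cytokine gene Il1b (-0.46 ± 0.09), and 8 higher and 3 lower under T lineage scaling. S100a9 went from 23.2 ± 6.0 to 595.8 ± 46.8 FPKM (4.65 ± 0.17), S100a8 rose by 4.50 ± 0.23, and Retnlg, a resistin-like protein, by 4.10 ± 0.12. The list's shares were 69.2% higher and 7.69% lower, beside 22.3% and 17.1% of all genes. Of the 9 genes called higher, 5 had an MWA+PBS mean under 1 FPKM, Retnlg among them, and so passed the filter only through MWA+2DG. The same held for 2 of the 13 secondary and tertiary granule genes, so these counts and medians are descriptions and support nothing. S100a8 and S100a9 were above 1 FPKM in all 6 samples, and in both genes the groups did not overlap. Of all tested genes, 30.2% were higher in MWA+2DG without overlap.

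Genes whose proteins process, carry or work beside the primary granule enzymes were called in both directions. Of 17 tested granule partner genes, 9 fell and 5 rose, with a median log2 change of -0.34. That is 52.9% lower and 29.4% higher, beside 17.1% and 22.3% of all genes, and the share higher is near that of all genes. Ctsc encodes dipeptidyl peptidase I, which activates the serine proteases by trimming their amino terminus. It was 31.3, 32.0 and 30.5 FPKM in MWA+PBS and 14.4, 14.8 and 15.0 FPKM in MWA+2DG, a change of -1.04 ± 0.05 (limma adjusted p = 6.3e-06). Slpi, a secreted inhibitor of elastase and cathepsin G, fell by 1.19 ± 0.10 on the log2 scale (14.02 ± 1.87 to 5.54 ± 0.316 FPKM). Hexa, a lysosomal hexosaminidase subunit, fell by 1.07 ± 0.07.

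The 5 partners that rose had small changes, and when samples were scaled to T lineage genes 0 of 17 were called higher and 14 lower, beside 9045 of 12444 genes called lower. Lyz2 (lysozyme) rose by 0.41 ± 0.08, and with T lineage scaling it was at -0.06. Serpinb1a, an intracellular inhibitor of the neutrophil proteases, rose by 0.47 ± 0.08, and with T lineage scaling it was at 0.0045. Genes of the NADPH oxidase that rose were Cybb by 0.20 ± 0.06 (-0.26 with T lineage scaling), Ncf1 by 0.55 ± 0.08 (0.08) and Ncf4 by 0.22 ± 0.06 (-0.25). Lyz2 was 159.5 to 183.6 FPKM in MWA+PBS and 210.2 to 240.2 FPKM in MWA+2DG, and the groups did not overlap. The count of 5 higher was 3 without MWA+PBS sample 1, MWA+PBS sample 3, MWA+2DG sample 4 or MWA+2DG sample 5. Prss57, the remaining azurophil serine protease on the list, was below the filter, at 0.80 to 1.70 FPKM in MWA+PBS and 0.29 to 0.35 FPKM in MWA+2DG.

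Other genes of early neutrophil precursors were called in both directions. Of 11 tested, 6 fell and 3 rose (median -0.49), which is 54.5% lower and 27.3% higher. Over all tested genes 17.1% were called lower. The share higher is near the 22.3% of all tested genes and is no result about these genes. Gstm1, a glutathione S-transferase, had the lowest change at -2.16 ± 0.08 (20.04 ± 1.73 to 3.69 ± 0.25 FPKM), and Muc13, a membrane mucin, fell by 1.37 ± 0.11. Fcnb, a ficolin made by neutrophil precursors, rose by 1.37 ± 0.11, and by 0.90 with T lineage scaling. It was 1.85, 1.72 and 1.96 FPKM in MWA+PBS and 7.51, 5.45 and 6.15 FPKM in MWA+2DG, with limma adjusted p = 8.1e-05. The other genes that rose were Cst7, a cystatin (0.24 ± 0.06), and Rflnb, refilin B (0.17 ± 0.05). With T lineage scaling both were called lower (-0.23 and -0.29). Their MWA+PBS means, 33.9 and 42.1 FPKM, were far above that of Fcnb (1.84 FPKM). Which cells of the isolate made Cst7 and Rflnb was not tested. The count of 3 higher became 1 without MWA+PBS sample 1, MWA+PBS sample 3 or MWA+2DG sample 4, and 1, with 10 lower, under T lineage scaling.

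Among transcription factors of granulocyte and monocyte commitment, 8 of 11 tested fell and 1 rose (median -0.95). That is 72.7% lower and 9.09% higher, beside 17.1% and 22.3% of all genes. The largest decreases were in Klf4, a monocyte factor (-1.53 ± 0.08), Gata2, a factor of stem cells, mast cells and basophils (-1.48 ± 0.09), and Lmo2, a stem and erythroid cell cofactor (-1.31 ± 0.11). Spi1, which encodes PU.1, went from 10.4 ± 0.436 to 4.87 ± 0.37 FPKM, Irf8, the monocyte and dendritic cell factor, from 12.1 ± 0.579 to 5.09 ± 0.118 FPKM, and Myb from 18.1 ± 0.822 to 11.3 ± 0.782 FPKM. The exception was Cebpe, encoding C/EBPε, the factor needed for secondary granules. It was 1.62, 1.53 and 1.18 FPKM in MWA+PBS and 4.38, 4.70 and 4.10 FPKM in MWA+2DG, a change of 1.15 ± 0.10 (limma adjusted p = 0.00011), and the change was 0.68 with T lineage scaling. Cebpa was above Cebpe in each MWA+PBS sample and below it in each MWA+2DG sample. As Cebpa was chosen on this comparison, the crossing in part restates that choice. Gfi1, a repressor that works with C/EBPε in granulocytes, had a mean of 6.07 ± 0.854 FPKM in MWA+PBS and of 5.98 ± 0.566 FPKM in MWA+2DG (limma adjusted p = 0.92), and Runx1, a factor of definitive hematopoiesis, was not called either (adjusted p = 0.34). With T lineage scaling both were called lower (-0.48 and -0.58). Spi1, Irf8, Myb, Gfi1, Runx1, Prss57, Kit, Cd34, Flt3 and Csf3r were named after their values were seen.

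**Figure D4:**
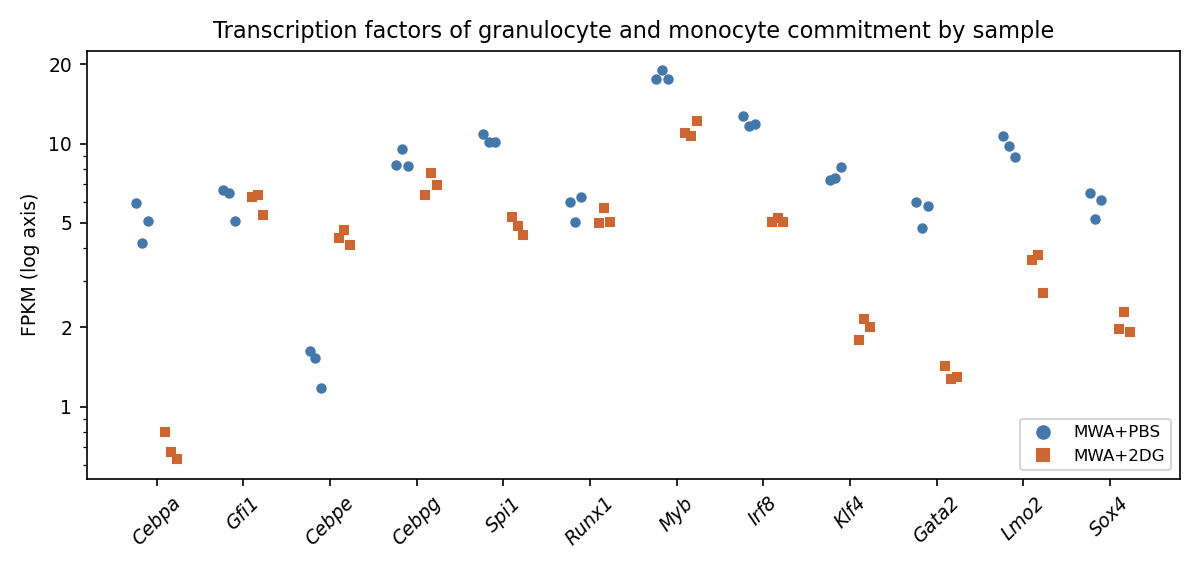
FPKM by sample on a log axis for Cebpa and the 11 tested transcription factors of granulocyte and monocyte commitment, with MWA+PBS as circles and MWA+2DG as squares. Cebpa drops from between 4.19 and 5.96 to between 0.63 and 0.80 FPKM, Cebpe rises above 4.0 FPKM, and Gfi1 overlaps between groups.

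Receptors of stem and progenitor cells were lower in 8 of 11 tested genes and higher in 2 (median -1.23), which is 72.7% lower and 18.2% higher, beside 17.1% and 22.3% of all genes. The share higher is near that of all genes and is no result about these receptors. Csf1r, the M-CSF receptor of monocytes and macrophages, had the largest change (67.9 ± 5.85 to 10.6 ± 0.0945 FPKM, -2.57 ± 0.07), followed by Cd93 (-1.43 ± 0.10) and Fcgr3, an IgG receptor (-1.40 ± 0.11). Kit, the stem cell factor receptor, was 5.63, 4.39 and 5.43 FPKM in MWA+PBS and 1.66, 1.54 and 1.73 FPKM in MWA+2DG. Cd34 changed by -1.29 ± 0.08 and Flt3 by -1.23 ± 0.13. Ly6c2 (0.41 ± 0.07) and Ly6a (0.98 ± 0.11), surface proteins that activated T cells also carry, rose, and with T lineage scaling 1 gene was called higher, Ly6a at 0.51, while Ly6c2 was at -0.06. Csf3r, the G-CSF receptor, had a mean of 8.91 ± 1.01 FPKM in MWA+PBS and of 10.3 ± 0.121 FPKM in MWA+2DG and was not called (limma adjusted p = 0.10), although it was called lower with T lineage scaling (-0.28).

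Genes of other hematopoietic lineages moved with the members. On the mast cell and basophil list, 7 of 8 tested genes fell and 0 rose by the adjusted p (median -1.47), with summed levels of 99.6 to 128.0 FPKM in MWA+PBS and 26.7 to 27.8 FPKM in MWA+2DG. Its leading genes were the basophil proteases Prss34 (-2.15 ± 0.07) and Mcpt8 (-1.95 ± 0.14) and the mast cell carboxypeptidase Cpa3 (-1.86 ± 0.11). The eosinophil list had 5 of 5 lower (median -1.52), with the eotaxin receptor Ccr3 at -2.23 ± 0.06, the ribonuclease Ear2 at -1.66 ± 0.14 and the granule protein Prg2 at -1.52 ± 0.20. Its sum was 50.5 to 57.3 FPKM in MWA+PBS and 10.8 to 15.8 FPKM in MWA+2DG. Shares called lower were 87.5% (mast cell and basophil) and 100% (eosinophil), beside 17.1% of all genes. These granulocyte genes kept a median of 23.6% (mast cell and basophil) and 26.9% (eosinophil) of their MWA+PBS level, beside 20.1% for the members. In MWA+2DG, 2 of the 5 eosinophil genes, 1 of the 8 mast cell and basophil genes and 6 of the 14 erythroid genes had a mean under 1 FPKM and passed the filter only through MWA+PBS, as did 1 progenitor receptor, Flt3.

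The monocyte and macrophage list had 15 of 18 tested genes lower and 2 higher (median -2.51), Ly6c2 and Lyz2, both of which are on other lists as well and neither of which was called higher with T lineage scaling. The complement genes C1qb (-2.78 ± 0.09) and C1qc (-2.63 ± 0.07) and the mannose receptor Mrc1 (-2.73 ± 0.05) led it. Its sum was 980.5 to 1052 FPKM in MWA+PBS and 426.7 to 469.3 FPKM in MWA+2DG. Lyz2 and Ly6c2 made up most of the MWA+2DG sum, and the other 16 genes summed to 759.3 to 817.0 and 137.4 to 145.0 FPKM. The erythroid list had 13 of 14 lower (median -1.27), with sums of 354.5 to 409.9 and 108.7 to 126.5 FPKM. It was led by the globins Hba-a1 (-2.17 ± 0.09), Hba-a2 (-2.09 ± 0.10) and Hbb-bs (-1.97 ± 0.19), whose copies are nearly identical, so the split of reads between them is uncertain. The megakaryocyte list had 3 of 4 lower, Pf4 (-1.03 ± 0.20), Itga2b (-0.97 ± 0.11) and Ppbp (-0.91 ± 0.16). Its sums were 18.3 to 22.8 and 8.24 to 10.8 FPKM. Shares called lower were 83.3% (monocyte and macrophage), 92.9% (erythroid) and 75% (megakaryocyte), beside 17.1% of all genes.

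Cell division genes were lower in 24 of 26 and higher in 0 (median -0.74), led by Aurkb (-1.05 ± 0.10), Tpx2 (-0.99 ± 0.09) and Ccna2 (-0.96 ± 0.10), with sums of 382.5 to 409.1 FPKM in MWA+PBS and 267.7 to 279.7 FPKM in MWA+2DG. T lineage genes were higher in 14 of 15 and lower in 0 (median 0.45), among them Cd2 (0.69 ± 0.07), Cd8a (0.66 ± 0.05) and Cd5 (0.60 ± 0.05), with sums of 1708 to 1793 and 2383 to 2542 FPKM. Of cell division genes 92.3% were called lower, beside 17.1% of all genes. Of T lineage genes 93.3% were called higher, beside 22.3% of all genes. No gene of the 13 lists was at 0 in all 6 samples. The part of these cell types in the members' levels was not tested.

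**Figure D5:**
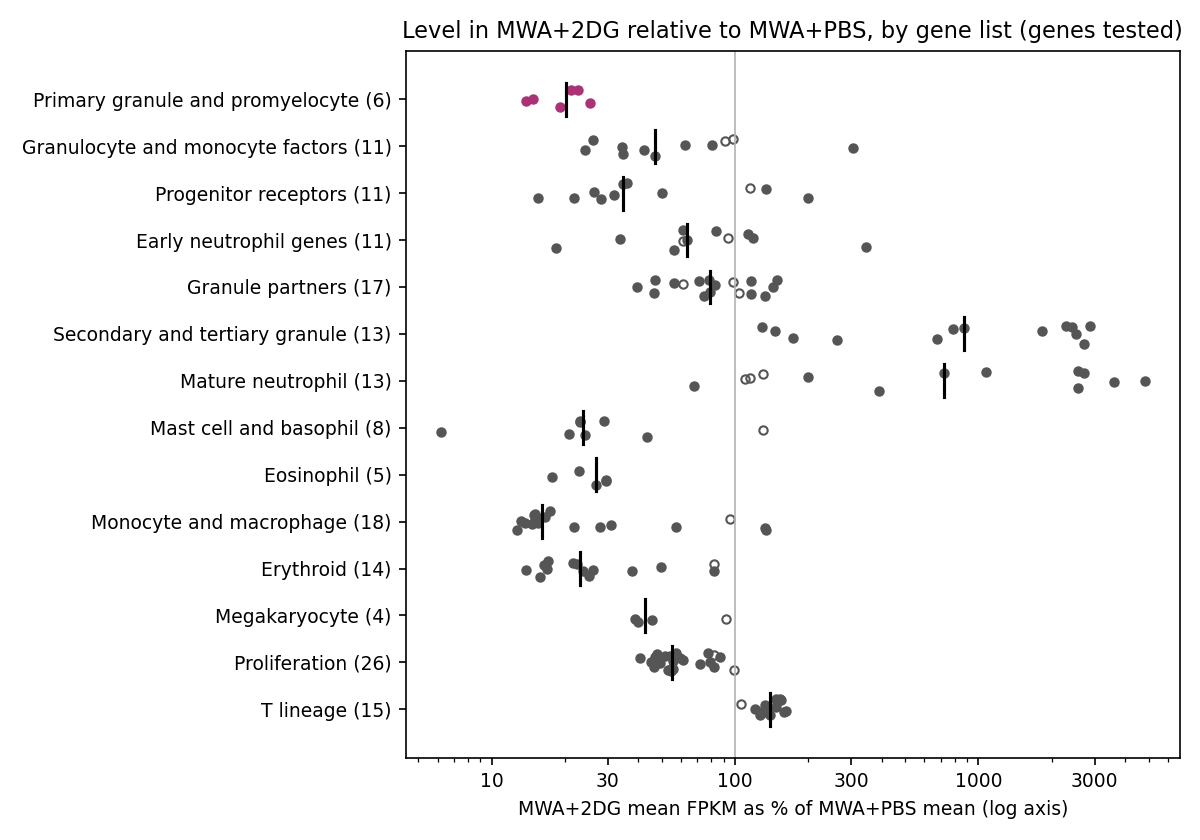
Mean FPKM in MWA+2DG as a percent of the MWA+PBS mean (log axis) for the members and for the tested genes of each list, with the number of genes in brackets; filled list genes were called by limma, open ones were not, the members are in purple, and the black line is the median. The members lie between 13.8% and 25.4%, the secondary and tertiary granule list has a median of 873.6%, and the monocyte and macrophage list has a median of 16.1%.

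The genes with the profile nearest to the members over the 6 samples were sought among all 12444 tested genes, by the root mean square distance of their centred log2(FPKM + 1) values. The nearest 8 were Gstm1 (0.0393), Dnajb1 (0.0405), Apoe (0.0435), Slc11a1 (0.0537), Tgm2 (0.0693), Pira2 (0.0714), Ctsb (0.0724) and Hba-a2 (0.0766). All 8 lay nearer to the members' mean profile than any member itself, since Elane, the nearest member, was at 0.0783 and Mpo, the farthest, at 0.322. Apoe, an apolipoprotein abundant in macrophages, had a mean of 151.2 ± 7.66 FPKM in MWA+PBS and of 34.5 ± 2.51 FPKM in MWA+2DG. Dnajb1, a heat shock co-chaperone, was 59.6 ± 2.07 and 13.4 ± 0.453 FPKM. Only Gstm1 of the 8 was on a list of neutrophil precursor genes. With 6 samples in 2 groups, this measure largely compares the sizes of group differences.

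Neighboring genes on the chromosome were added after the values were seen. Prtn3 and Elane are adjacent in RefSeq. Plppr3, on the other side of Prtn3 and on the opposite strand, overlaps it in GENCODE M21 and went from 5.77 ± 0.07 to 3.02 ± 0.203 FPKM (-0.75 ± 0.07). Next to Ctsg lies Mcpt8, given above as a basophil gene, and next to Ms4a3 lies Ms4a2, a subunit of the IgE receptor, at -1.10 ± 0.34 (limma adjusted p = 0.036), where MWA+PBS sample 2 (6.02 FPKM) was well above samples 1 and 3 (2.00 and 2.53 FPKM). Gm11505 overlaps Mpo on the opposite strand and was 0.80, 0.93 and 1.5 FPKM in MWA+PBS and 0.10, 0.12 and 0.07 FPKM in MWA+2DG. Gm45091 overlaps Cebpa and was at or near 0. Libraries marked strand, but the sources used here do not state whether strand entered the counting, so reads of overlapping genes may be uncertain. Elane, Ctsg and Ms4a3 had no overlapping gene.

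Each sample listed 22414 to 23340 genes above 0, with FPKM totals of 291803 to 313257, and the read depth is unknown. Scaling to the 15 T lineage genes shifted the log2 change of all genes by -0.47 and turned the division of 2773 genes higher and 2134 lower into 414 higher and 9045 lower. Under it the members' median was -2.56 beside -0.42 for all genes.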

How the data were processed

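The authors isolated poly(A) RNA, made strand-marked libraries with molecular identifiers, mapped reads with HISAT2 and quantified them with StringTie and ballgown after read filtering with fastp. The submitters' processing notes also name cutadapt 1.9, HISAT2 2.0.4, UMI-tools, StringTie 1.3.4d and mm9, while the sources used here do not give the annotation. The deposited values were FPKM per gene, which are relative to each library's total and carry no read counts, so depth and counting error are unknown. Symbols came from GENCODE M21 and were found for 28689 of 28773 gene IDs.

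Levels were tested on log2(FPKM + 1) with limma 3.58.1 in R 4.3.3 (lmFit and eBayes with its trend option, as a two-sided test of MWA+2DG against MWA+PBS with no covariates) for the 12444 genes with a mean FPKM of at least 1, with Benjamini-Hochberg adjustment over all of them and calls at an adjusted p of 0.05. The script was tested on simulated data. Groups came from the labels. Nothing states that the 3 samples of a group were separate animals, so p-values measure only the spread between these samples, which may be technical. No batch is labelled, so batch and treatment cannot be told apart if they coincide.

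The members and the 13 lists (190 genes, of which 158 were tested and 10 were in more than 1 list) were chosen with earlier results of these data known. Bpi and Ahsp were not analysed here. Named genes were the members, the 3 largest changes of each list with any gene called against its list, and the 8 nearest profiles, and a few more were named after their values were seen. Motifs were searched on both strands of the RefSeq windows, in which 6 of 6 members matched by symbol. Alternatives were a pseudocount of 0.1, no filter, quantile normalization, a mean of at least 5, T lineage scaling, median ratio scaling, eBayes without a trend, the study's rule (p under 0.05 with a log2 change beyond 0.25) and leaving out each sample.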

Additional observations from a re-analysis of the deposited data

How the results depend on the processing

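The members were chosen on this comparison, so their recomputed values describe how far the size depends on the processing. A mean FPKM of at least 5 left out Cebpa. Their median log2 change was -2.30 with a pseudocount of 0.1 and -2.56 with T lineage scaling, which moves all genes by construction. Of 71 recomputed member changes, 62 stayed within 1 SD of the reported value and 9 moved further. The number of genes called was 2951 with a mean of at least 5, since fewer genes were tested, and 9459 with T lineage scaling, against 4907. Leaving out each sample gave 3706 to 5195 genes called, 130 to 140 list genes called against 143, and a members' median of -2.17 to -2.02. The group difference in the log2 primary to secondary granule ratio was then -6.46 to -6.22, against -6.31. That difference was -6.40 after quantile normalization. With a mean of at least 5, fewer genes of the lists were tested, and the genes called lower numbered 5 for factors (0 higher), 4 for progenitor receptors, 3 for mast cells and basophils, 3 for eosinophils, 6 for the erythroid list, 15 for proliferation, and 0 for the megakaryocyte and mature neutrophil lists. Without a filter 7 megakaryocyte genes were lower. Under the study's rule 3 granule partners, 1 early neutrophil gene and 1 mast cell and basophil gene were higher. With T lineage scaling, 3 T lineage genes were higher and 2 lower, and the other list counts that moved by over 1.5 times stand beside their lists. No paired analysis was made. The sample titles number MWA+PBS 1 to 3 and MWA+2DG 4 to 6, while the value columns number each group 1 to 3. Neither states that samples were paired. FPKM without counts limits what can be said of Cebpa in MWA+2DG, where each sample was below 1 FPKM.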
